A study of Homo sapiens with 6 samples.

Results

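The genes that make retinoic acid (RA), break it down and pass on its signal were examined at day 8 of hematopoietic differentiation of H1 cells, a human embryonic stem cell (hESC) line, by RNA-seq. They are 10 genes, taken by symbol, of 58364 rows with values in the deposited table. Each of the 10 stood on 1 row. They are the RA-synthesizing enzymes ALDH1A1 and ALDH1A2, the RA-degrading enzymes CYP26A1, CYP26B1 and CYP26C1, the RA receptors RARA, RARB and RARG, and the cellular RA-binding proteins CRABP1 and CRABP2. The 6 libraries were 2 of wild-type (WT) H1 cells and 4 of H1 cells with MSX2, a homeobox transcription factor, knocked out (MSX2-/-). The 4 comprise 2 replicates of each of 2 clones, numbered 1 and 2 in the table and called 1# and 2# here. Both clones came from single cells infected with lentivirus carrying Cas9 and a guide against the second exon of MSX2 and selected with puromycin, so each is 1 clone of 1 cell line, and the sources used here describe no such selection for WT. The paper's text gives sorted CD31+ cells for both genotypes, while the sample labels name CD31+ only for MSX2-/-. The growth text in the labels also mentions overexpression of another gene, HAND1, which the paper's text does not. Nothing in the labels says whether the replicates were separate cultures, so the p-values measure the spread between these libraries, which may be technical.

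RA is made from vitamin A (retinol) in steps: retinol is oxidized to retinal, and retinal dehydrogenases of the ALDH1A family oxidize retinal to RA. Enzymes of the CYP26 family inactivate RA, and CRABP proteins carry it within the cell. In the nucleus RA binds a receptor of the RAR family, which sits on DNA as a pair with a retinoid X receptor (RXR) and exchanges corepressors for coactivators when RA binds. ALDH1A2 is the main RA-producing enzyme of the early embryo. Aldehyde dehydrogenase activity, not that of ALDH1A1 alone, is widely used to mark blood stem and progenitor cells. RA signaling is known to act on the endothelial-to-hematopoietic transition.

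The stretches of DNA upstream of 4 of these genes are given first. Those of ALDH1A1 and ALDH1A2 are shown because these members differed most between MSX2-/- and WT on the log2 scale of the tests, in opposite directions. That scale understates changes of low genes. By the ratio of the MSX2-/- mean to the WT mean, the scarce CYP26B1 (13.6) and CRABP1 (7.92) differed more. They are the 250 bases before the RefSeq start on GRCh38.p14, for ALDH1A2 the upstream one of its 2 starts, read 5′ to 3′ on the minus strand on which both genes lie, at chr9:72953054-72953303 and chr15:58065712-58065961. Capitals mark CCAAT in both, the motif AGATAA, of the kind known for GATA factors, in ALDH1A1 and TATATA in ALDH1A2.
ALDH1A1: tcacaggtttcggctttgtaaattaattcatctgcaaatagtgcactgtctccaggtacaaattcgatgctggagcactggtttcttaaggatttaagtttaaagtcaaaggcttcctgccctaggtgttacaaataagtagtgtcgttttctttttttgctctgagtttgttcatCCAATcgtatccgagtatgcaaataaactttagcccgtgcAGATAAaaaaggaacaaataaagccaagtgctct
ALDH1A2: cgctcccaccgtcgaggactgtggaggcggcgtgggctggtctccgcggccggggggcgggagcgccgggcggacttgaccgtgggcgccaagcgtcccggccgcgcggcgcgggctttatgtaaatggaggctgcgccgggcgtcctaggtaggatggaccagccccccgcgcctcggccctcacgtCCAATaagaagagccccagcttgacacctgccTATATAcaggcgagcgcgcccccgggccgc
Counted back from the start, CCAAT lay at bases 74 to 70 and AGATAA at bases 34 to 29 upstream of ALDH1A1. Upstream of ALDH1A2, CCAAT lay at bases 62 to 58 and TATATA, which reads the same on both strands, at bases 30 to 25. The window of the other ALDH1A2 start, not shown, held AGATAA at bases 140 to 135. Searched on both strands, CCAAT stood in 32.0% of 35116 RefSeq windows of the same length, AGATAA in 9.17% and TATATA in 3.73%. The homeobox-type motif TAATTG, present in 6.70% of windows, was in none of these 3.

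RARB and CYP26A1 are textbook RA targets, and the element through which RA receptors act on them was therefore looked for. It is a direct repeat of a 6-base unit with 5 bases between. The unit was taken as AGGTCA, as AGTTCA, as GGGTCA, and as GGTTCA, in any combination and on both strands. All 10 members had RefSeq starts, 17 windows in all. Such a repeat lay in 2 of these windows, 1 of RARB and 1 of CYP26A1, and in 0.0740% of all windows. As these 2 genes were the reason for the search, the shares do not test for an excess. The 30 bases around each repeat are given on the plus strand, on which both genes lie, at chr3:25428204-25428233 and chr10:93073797-93073826 of GRCh38.p14, with the units in capitals. In CYP26A1 they are the reverse complement of AGTTCA, since the repeat is on the other strand.
RARB: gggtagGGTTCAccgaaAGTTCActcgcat
CYP26A1: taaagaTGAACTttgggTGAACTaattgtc
The CYP26A1 window also held TAATTG on each strand, and the copy nearer the start shares 1 base with the repeat. Repeats with 2 or 1 bases between were in no member's window, and in 0.0313% and 0.0968% of all windows. TGATAA, another GATA-type motif, stood in a window of RARB and in 6.66% of all windows. These are matches of letters, and binding was not measured.

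Expression is given as FPKM (fragments mapped to a transcript, scaled to its length and to all mapped fragments), which allows genes to be compared per length. The FPKM of a library summed to 555286 to 617120, and 13366 to 14222 genes reached 1 FPKM. Numbers of reads are not known from the table, and depth relative to WT replicate 1 was between 1.01 and 1.18, so no counting error can be given. MSX2 itself had 3.64 and 1.44 FPKM in WT, against 18.0 and 5.62 FPKM in 1# and 31.8 and 6.69 FPKM in 2#, in the order replicate 1, replicate 2. Each knockout library was above both WT libraries, and the log2 fold change was 1.99 (adjusted p by limma 0.31, or 0.011 if the replicate number was a block). As the level of a transcript does not show whether an edited exon still encodes the protein, it does not check the labels. Among 10 endothelial markers the summed level was 2549 to 2668 FPKM in WT and 1608 to 1970 FPKM in MSX2-/-, and PECAM1, which encodes CD31, was at 186 to 258 FPKM in every library. Of the 10, 3 were lower in MSX2-/- without and 7 with this block, where 1.28% and 9.85% of all genes tested were called in either direction. ROBO4, also on this list, went the other way, at 33.7 and 37.4 FPKM in WT and 39.3 to 50.1 FPKM in MSX2-/-. It was not called higher without or with the block. The 10 hematopoietic markers summed to 113 to 158 FPKM in WT and 234 to 357 FPKM in MSX2-/-, with PTPRC (CD45) under 0.12 FPKM throughout, and 4 of the 9 tested were higher without and 8 with the block. The 9 mesenchymal markers summed to 279 to 337 FPKM in WT and 500.2 to 574 FPKM in MSX2-/-, with 2 of the 8 tested higher without and 4 with the block. COL1A1 (mean 41.8 FPKM in WT and 198 FPKM in MSX2-/-) and TAGLN (24.4 and 91.0 FPKM) carried that higher sum, while COL1A2 (146 and 140 FPKM) and COL3A1 (42.0 and 29.8 FPKM) were not higher on average. In such bulk samples, fewer cells of a type and less RNA per cell cannot be told apart.

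MSX2-/- libraries had more mRNA of ALDH1A1 and less of ALDH1A2 than WT, while the receptors RARA and RARG and the carrier CRABP2 were abundant in both genotypes and did not differ beyond their spread. ALDH1A1 was 4.49 times as high on average, and ALDH1A2 stood at 0.219 of its WT mean. Transcripts of the RA-degrading CYP26 enzymes were scarce, with CYP26B1 above WT in all 4 MSX2-/- libraries but variable. RARB and CYP26A1, the RA targets shown above, stayed under 0.8 FPKM in every library. Of the 10 genes, 6 had a mean of at least 0.5 FPKM and entered the test across 15895 genes. ALDH1A1 alone passed an adjusted p of 0.05 with limma, so 1 of 6 was called, where 1.28% of all tested genes were called in either direction. ALDH1A2 was also called when the replicate number, which pairs the libraries, was a block, so 2 of 6 against 9.85% of all genes. In 3 of the 6, ALDH1A1, ALDH1A2 and CYP26B1, the 2 genotypes did not overlap, as in 21.3% of all genes tested. The median log2 fold change was 0.30 over the 6 and 0.0081 over all genes tested, with 5 of the 6 above 0. CYP26B1 is among the 6 only through its MSX2-/- libraries, with a mean of 0.128 FPKM in WT and 1.75 FPKM in MSX2-/-. Its place in the counts of non-overlap and of direction thus followed partly from the filter.

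**Figure D1:**
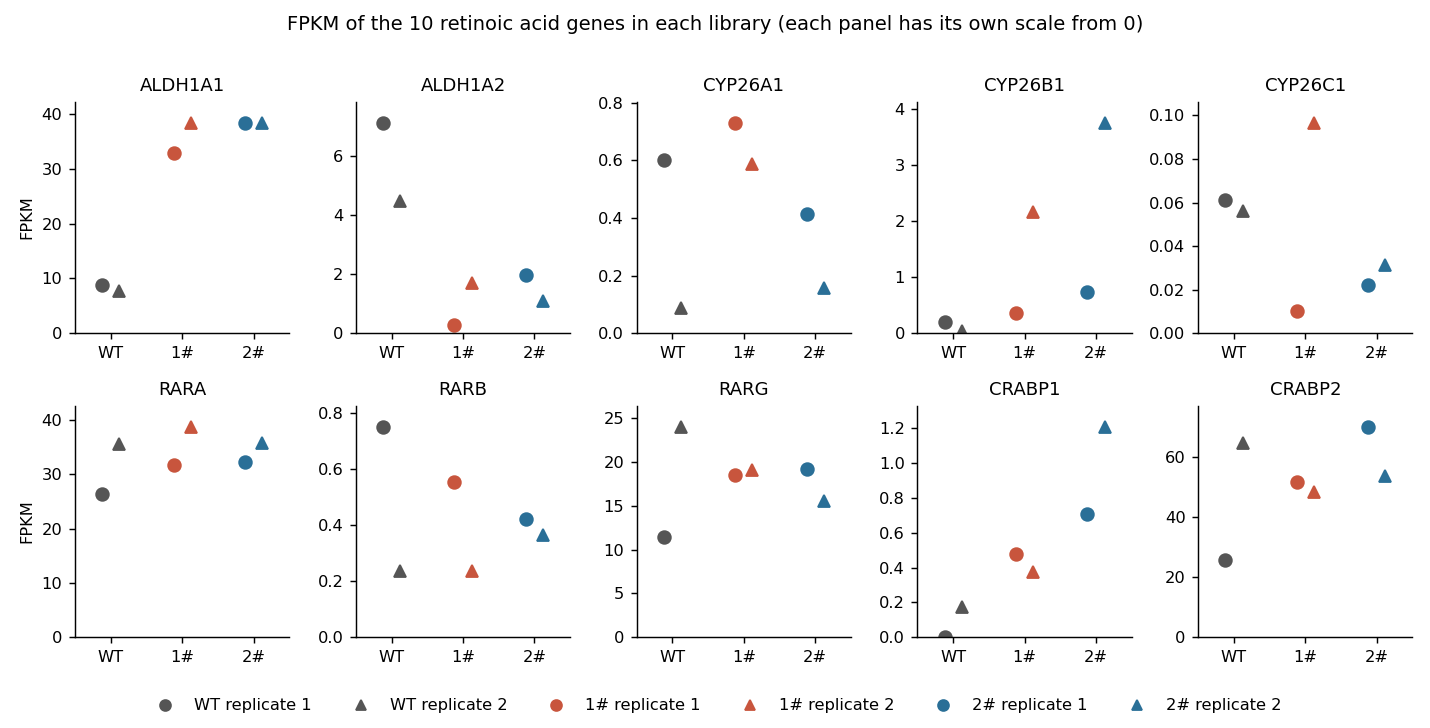
FPKM of each of the 10 genes (vertical axis, a separate scale from 0 in each panel) in WT, 1# and 2# (horizontal axis). Circles are replicate 1 and triangles replicate 2. ALDH1A1 lies at 32.9 to 38.4 FPKM in the MSX2-/- libraries and at 7.73 to 8.77 FPKM in WT, and ALDH1A2 lies lower in all 4 MSX2-/- libraries than in either WT library.

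ALDH1A1, the cytosolic retinal dehydrogenase, was at 8.77 and 7.73 FPKM in WT replicates 1 and 2, at 32.9 and 38.3 FPKM in 1# and at 38.4 and 38.4 FPKM in 2#. All MSX2-/- libraries were far above both WT libraries, and both clones reached almost the same level. WT averaged 8.25 ± 0.735 FPKM (SD, n = 2), and MSX2-/- averaged 37.0 ± 2.74 FPKM (SD, n = 4). The log2 fold change on the scale of FPKM + 1 was 2.04 (SE 0.13), with an adjusted p of 0.0053 by limma, and it was the 43rd highest of 15895 genes. Within the replicate numbers, the MSX2-/- libraries exceeded the WT library by 1.80 (1#) and 2.01 (2#) in replicate 1 and by 2.17 and 2.17 in replicate 2 on the log2 scale. With any of the 6 libraries left out the fold change stayed between 1.96 and 2.12, with adjusted p between 0.025 and 0.043 by limma.

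ALDH1A2, whose protein is the chief RA-synthesizing enzyme of embryonic mesoderm, went the other way. It was at 7.12 and 4.47 FPKM in WT, at 0.296 and 1.71 FPKM in 1# and at 1.96 and 1.11 FPKM in 2#. The highest MSX2-/- library lay below the lower WT library, although the levels within each genotype were uneven. WT averaged 5.79 ± 1.88 FPKM (SD, n = 2), and MSX2-/- averaged 1.27 ± 0.741 FPKM (SD, n = 4). The log2 fold change was -1.62 (SE 0.37), the 56th lowest of 15895, and its adjusted p by limma was 0.12 without and 0.047 with the replicate block. The call with the block was lost at a pseudocount of 0.1 (adjusted p = 0.087) and without the filter on low genes (adjusted p = 0.18). In the GENCODE annotation, LIPC and AQP9 overlap ALDH1A2 on the opposite strand, and the use of strand in counting is not given in the sources used here. Both were low, at 0.0859 to 0.362 FPKM and at up to 0.736 FPKM.

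**Figure D2:**
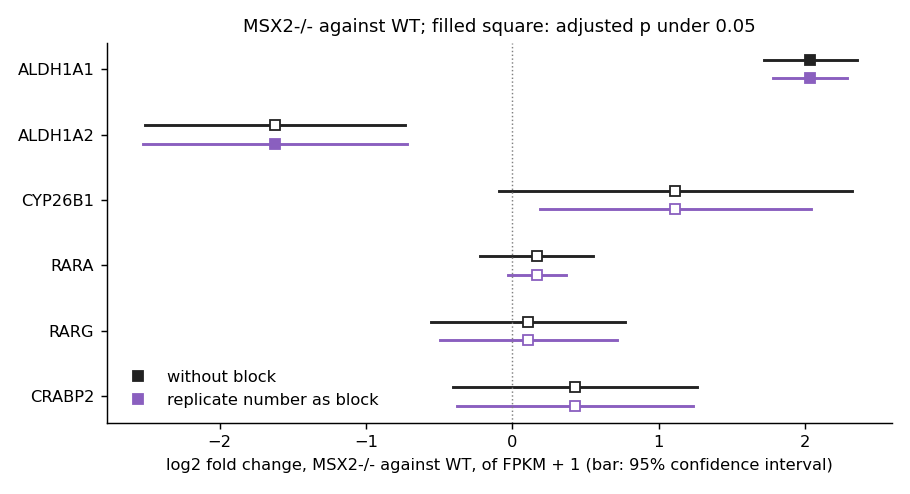
Log2 fold change of FPKM + 1 in MSX2-/- against WT (horizontal axis) for the 6 genes tested, without the replicate block (black) and with it (purple). Bars are 95% confidence intervals and filled squares have an adjusted p under 0.05. ALDH1A1 is called in both at 2.04 and ALDH1A2, at -1.62, with the block only.

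Together with ALDH1A3, the remaining enzyme of the family, these genes gave a summed mRNA level of 16.2 and 13.7 FPKM in WT and of 34.7 to 43.0 FPKM in MSX2-/-. Enzyme protein, enzyme activity and RA were not measured in these libraries, so the sum does not give the capacity to make RA. ALDH1A1 made up 54.0% and 56.2% of that sum in WT, and ALDH1A2 43.9% and 32.5%. In the MSX2-/- libraries, ALDH1A1 made up 89.1% to 94.7% and ALDH1A2 0.851% to 4.63%. The transcripts of these 2 genes were thus of similar abundance in WT, with 1.23 and 1.73 times as much ALDH1A1 as ALDH1A2. In MSX2-/- the ratio was between 19.6 and 111, and the highest was in 1# replicate 1, where ALDH1A2 was lowest. ALDH1A3 was at 0.347 and 1.55 FPKM in WT and at 1.31 FPKM or more in MSX2-/-, highest in 1# replicate 2, and its log2 fold change was 0.64 (adjusted p = 0.55 by limma).

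**Figure D3:**
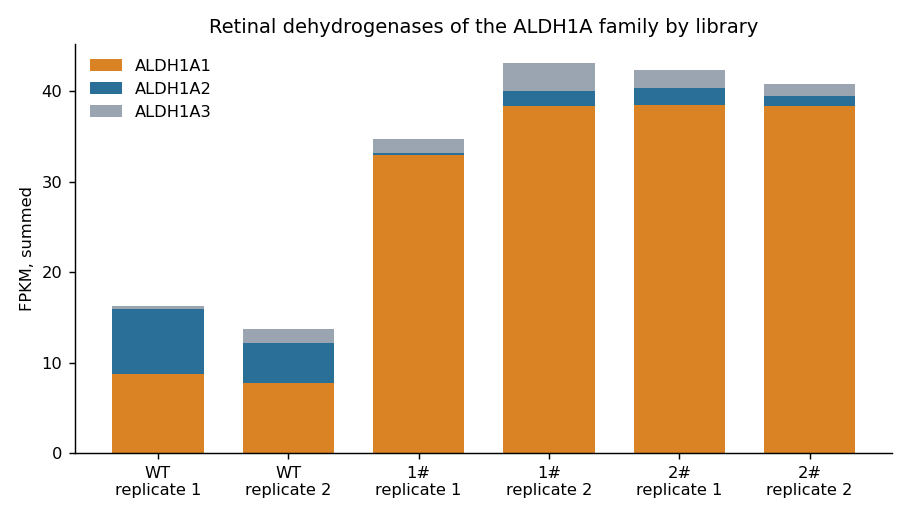
FPKM of ALDH1A1, ALDH1A2 and ALDH1A3 stacked for each of the 6 libraries (vertical axis, from 0). The WT bars reach 16.2 and 13.7 FPKM and hold both ALDH1A1 and ALDH1A2, while the MSX2-/- bars reach 34.7 to 43.0 FPKM and are almost entirely ALDH1A1.

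ALDH1A1 is also made in liver-type endoderm, so markers of that tissue are given beside it. The 9 endoderm and hepatic markers summed to 211 and 122 FPKM in WT, 387 and 377 FPKM in 1#, and 232 and 15.4 FPKM in 2#. ALB was at 122 and 125 FPKM in 1# but at 15.3 FPKM in 2# replicate 1 and listed at 0 in 2# replicate 2. ALDH1A1 was at 38.4 FPKM in that last library. FGB was also low in 2#, at 2.52 and 0.0454 FPKM, but not every marker followed ALB. In 2# replicate 1, APOA1 was at 72.1 FPKM, FOXA2 at 5.55 FPKM and HNF4A at 1.81 FPKM. In WT replicate 1 these genes had 10.5, 0.624 and 0.342 FPKM. In 2# replicate 2 they were at 10.4, 0.439 and 0.139 FPKM, and in WT replicate 2 at 19.7, 0.248 and 0.0789 FPKM. CD31+ is named in the labels for MSX2-/- only, and which cells the hepatic transcripts came from was not tested. The part of the hepatic markers, of the mostly lower endothelial and higher hematopoietic markers, and of COL1A1 and TAGLN in the differences of ALDH1A1 and ALDH1A2 was not tested.

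The RA-degrading enzymes were expressed at a low level. CYP26B1 was at 0.210 and 0.0470 FPKM in WT, at 0.357 and 2.16 FPKM in 1# and at 0.730 and 3.76 FPKM in 2#. The MSX2-/- libraries were all above WT, those of replicate 2 by far the most. Its log2 fold change was 1.12 (SE 0.51), with an adjusted p by limma of 0.47 without and 0.13 with the block, and on a scale with a pseudocount of 0.1 it was 2.66. CYP26A1, the member of the family that RA itself induces, was at 0.601 and 0.0881 FPKM in WT, 0.731 and 0.589 FPKM in 1#, and 0.412 and 0.155 FPKM in 2#. These values overlapped, and the replicates of WT lay further apart than the genotypes. CYP26C1 did not reach 0.1 FPKM, with 0.0610 and 0.0560 FPKM in WT, 0.0103 and 0.0967 FPKM in 1# and 0.0224 and 0.0313 FPKM in 2#. The sum of the 3 was 0.871 and 0.191 FPKM in WT, 1.10 and 2.85 FPKM in 1# and 1.16 and 3.94 FPKM in 2#.

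Of the receptors, RARA and RARG were well expressed and RARB was not. RARA was at 26.4 and 35.6 FPKM in WT, at 31.8 and 38.8 FPKM in 1# and at 32.3 and 35.8 FPKM in 2#. Replicate 2 was higher than replicate 1 in WT and in both clones, and the genotypes overlapped. Its log2 fold change was 0.17, with a 95% confidence interval of -0.22 to 0.55, and the adjusted p by limma was 0.81. RARG was at 11.5 and 24.1 FPKM in WT, at 18.6 and 19.1 FPKM in 1# and at 19.3 and 15.6 FPKM in 2#. Its 4 MSX2-/- values lay between the WT values, and the log2 fold change was 0.11 (interval -0.55 to 0.77, adjusted p = 0.96 by limma). RARB was at 0.751 and 0.235 FPKM in WT, 0.555 and 0.236 FPKM in 1#, and 0.423 and 0.364 FPKM in 2#, again with overlap. TOP2B, at 19.2 to 24.4 FPKM, overlaps RARB on the opposite strand, and RARA-AS1, at 3.84 FPKM or more, overlaps RARA, so without strand some reads cannot be told apart. RARA made up 59.4% to 69.2% of the summed receptor level in every library, RARG 29.7% to 40.2%, and RARB at most 1.94%. Without WT replicate 1, the fold changes turned to -0.04 for RARA and to -0.39 for RARG, neither of them called.

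CRABP2, which delivers RA to the receptors, was the most abundant of the 10 genes by its mean over the 6 libraries. It was at 25.8 and 64.7 FPKM in WT, at 51.8 and 48.5 FPKM in 1# and at 70.2 and 53.8 FPKM in 2#. The WT libraries lay far apart and the genotypes overlapped. The log2 fold change was 0.43, with an interval of -0.40 to 1.27 and an adjusted p of 0.75 by limma, and it turned to -0.22 without WT replicate 1. Its relative CRABP1 was listed at 0 and at 0.175 FPKM in WT and was at 0.476 and 0.373 FPKM in 1# and 0.708 and 1.21 FPKM in 2#. All MSX2-/- libraries were above WT, at a level of at most 2.20% of the summed CRABP level. For CRABP1 and the other 3 genes under the filter on low means (CYP26A1, CYP26C1 and RARB), an exact two-sided permutation test over the 15 divisions of the libraries cannot give a p below 0.067. It gave 0.13 for CRABP1, 0.60 for CYP26A1, 0.60 for CYP26C1 and 0.73 for RARB, and with a pseudocount of 0.1 CRABP1 reached the smallest possible p of 0.067.

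Between the clones, no difference was found in any of the 6 genes tested. With limma in a fit of 3 groups, 0 of 6 differed between 2# and 1# at an adjusted p of 0.05 and 0 of 6 at an unadjusted p of 0.05, and 0% of all genes were called. ALDH1A1 differed between them by 0.11 on the log2 scale, with an interval of -0.33 to 0.55. The interval for ALDH1A2 was wider, from -0.67 to 1.5 around 0.41. Against WT, ALDH1A1 was higher by 1.98 in 1# and by 2.09 in 2#, with adjusted p of 0.097 and 0.083 by limma. ALDH1A2 was at -1.83 in 1# and -1.42 in 2#, with adjusted p of 0.33 and 0.48. In each clone 0 of 6 genes were thus called, while 2 of 6, ALDH1A1 and ALDH1A2, had an unadjusted p under 0.05, and 0.00629% of all genes were called in 1# and 0.00629% in 2#. With the replicate block, ALDH1A1 was called in 1# (adjusted p = 0.0097 by limma) and in 2# (adjusted p = 0.0085), 1 of 6 genes in each, where 3.46% and 3.71% of all genes were called.

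The replicate number moved many genes, and its effect on these was looked at separately. Replicate 2 against replicate 1, within WT, 1# and 2#, gave 0 of 6 genes at an adjusted p of 0.05 by limma, against 27.9% of all genes tested. RARA alone had an unadjusted p under 0.05, with a log2 difference of 0.28 (adjusted p = 0.069). CYP26B1 was higher in replicate 2 of both clones but lower in replicate 2 of WT, and its log2 difference was 0.82 (adjusted p = 0.13 by limma). Without the WT pair it was 1.34 with an adjusted p of 0.015 by limma, where 4088 of 15909 genes were called. Without the pair of 1# or of 2# it was not called (adjusted p = 0.36 and 0.41 by limma).

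Whether the difference between MSX2-/- and WT itself depended on the replicate number was tested as an interaction. It was passed by 0 of 6 genes with limma, with 0.0189% of all genes called, and CYP26B1, RARG and CRABP2 had an unadjusted p under 0.05. CRABP2 was higher than WT by 0.98 (1#) and 1.41 (2#) on the log2 scale in replicate 1. In replicate 2 it stood at -0.41 and -0.26. The difference of the effects was -1.53 (SE 0.28, adjusted p = 0.32 by limma). RARG showed the same signs, at 0.65 and 0.70 in replicate 1 and at -0.32 and -0.60 in replicate 2, and its difference of effects was -1.13 (SE 0.21, adjusted p = 0.32 by limma). Both have their lowest value in WT replicate 1, the single library with which both clones were compared in replicate 1. For ALDH1A1 and ALDH1A2 the sign was the same in all 4 comparisons, with differences of effects of 0.27 (SE 0.17) and 0.86 (SE 0.75).

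**Figure D4:**
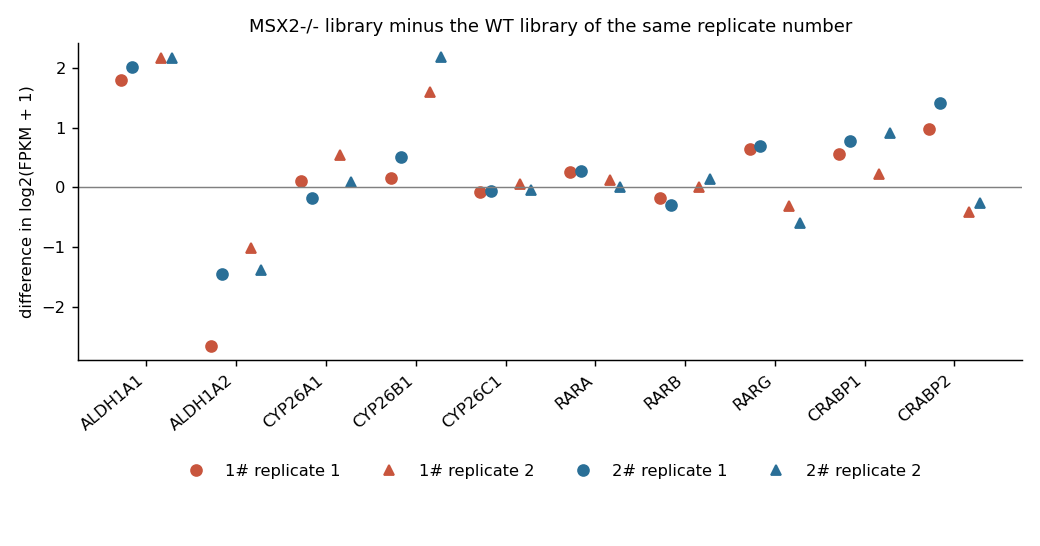
Difference in log2(FPKM + 1) between each MSX2-/- library and the WT library that shares its replicate number (vertical axis) for the 10 genes. Circles are replicate 1, triangles replicate 2, red 1# and blue 2#. ALDH1A1 lies between 1.80 and 2.17 and ALDH1A2 between -2.65 and -1.01, whereas RARG and CRABP2 are above 0 in replicate 1 and below 0 in replicate 2.

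The rest of the retinoid pathway was taken from 6 lists by role, with 57 genes reported here, of which 40 were expressed highly enough to be tested. Without the block, 0 of them rose and 1 fell, against 1.28% of all genes called. With it, 0 rose and 4 fell, against 9.85%. The median log2 fold change over the 40 was -0.03, and 17 were above 0. The 8 tested corepressors and coactivators reported here, proteins that RA receptors bind without or with RA, were not called without or with the block. Their log2 fold changes ran from -0.27 (NCOA1) to 0.16 (NCOA3).

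Of the 11 RA target genes tested and reported outside the 10, TGM2 fell without the block and 2 more with it. Of all genes tested, 1.28% were called without the block and 9.85% with it. TGM2, a transglutaminase long used as a readout of RA, was at 157 and 135 FPKM in WT, at 78.1 and 74.2 FPKM in 1# and at 90.02 and 73.9 FPKM in 2#. Its groups did not overlap, and its log2 fold change was -0.88 (SE 0.13), with an adjusted p of 0.035 by limma, 0.0024 with the block, and 0.053 to 0.23 when any 1 library was left out. MEIS2, a homeobox factor, was at 58.4 and 32.4 FPKM in WT, 18.9 and 15.9 FPKM in 1#, and 30.2 and 15.9 FPKM in 2#. It was lower in MSX2-/- within both replicate numbers, and its log2 fold change was -1.12, with adjusted p by limma of 0.23 without and 0.017 with the block (0.096 with the block and no filter on low genes). TSHZ1, a zinc finger factor, was at 5.52 and 3.22 FPKM in WT, 3.15 and 2.12 FPKM in 1#, and 3.59 and 1.90 FPKM in 2#. It was called with the block only (log2 fold change -0.53, adjusted p = 0.55 without and 0.047 with it, by limma, and 0.12 with it and no filter). MEIS2 and TSHZ1 were also lower in replicate 2 than in replicate 1, with adjusted p of 0.030 and 0.032 by limma. The median of the 11 was -0.31, and 3 of the 11 were above 0. Several of these genes have other known inputs, and the listed HOXB1 and CDX1 were too low to be tested.

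Of the retinoid X receptors, RXRA was at 46.8 and 34.5 FPKM in WT, 32.4 and 24.9 FPKM in 1#, and 36.1 and 25.7 FPKM in 2#. It was below WT within each replicate number and also lower in replicate 2 than in replicate 1 (adjusted p = 0.017), and its log2 fold change was -0.44, with adjusted p by limma of 0.49 without and 0.021 with the block (0.052 with the block and no filter). TTR, which carries retinol in the blood with its binding protein, had the highest log2 fold change of the 40, at 1.08, and was not called (adjusted p = 0.75 by limma). It was at 2.64 and 5.27 FPKM in WT, 17.5 and 15.9 FPKM in 1#, and 13.9 and 1.25 FPKM in 2#, and it is itself on the hepatic list whose sum was lowest in 2# replicate 2. The 11 tested enzymes that interconvert retinol and retinal gave no call without or with the block, with log2 fold changes from -0.12 (DHRS3) to 0.34 (RDH10).

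**Figure D5:**
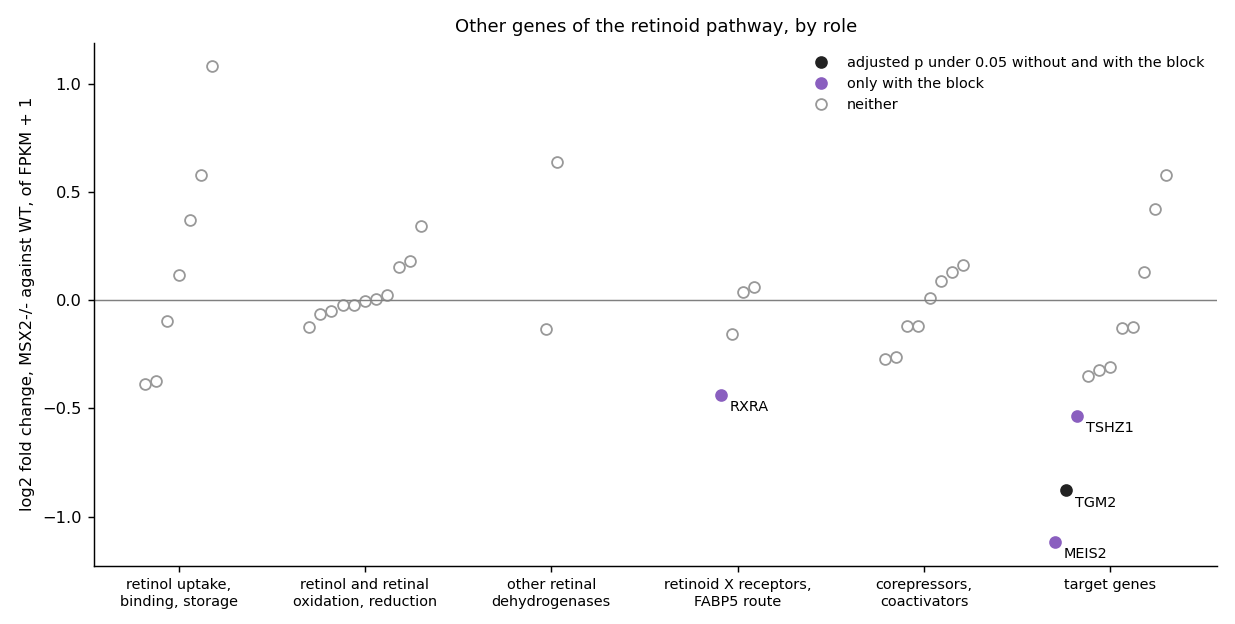
Log2 fold change of FPKM + 1 in MSX2-/- against WT (vertical axis) for the 40 tested genes of the retinoid pathway outside the 10, by role (horizontal axis). Each circle is a gene, and genes on 2 lists appear in both. The black circle (TGM2) was called without and with the replicate block, purple ones (RXRA, MEIS2 and TSHZ1) with it only, and open ones in neither.

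Genes whose pattern over the 6 libraries was most like that of ALDH1A1 on the log2 scale were RBBP6 (Pearson r = 0.998), FDXR (0.998) and PAPSS2 (0.997). For ALDH1A2 they were SNRNP200 (0.993), FAT4 (0.992) and TOM1L2 (0.990). These values describe 6 libraries that fall apart by genotype. FDXR, a mitochondrial reductase, was at 30.0 and 30.3 FPKM in WT and at 44.9 to 48.0 FPKM in MSX2-/-. FAT4, an atypical cadherin, was at 7.76 and 6.64 FPKM in WT and at 4.55 to 5.96 FPKM in MSX2-/-, with its lowest value, as for ALDH1A2, in 1# replicate 1.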

How the data were processed

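RNA-seq of 2 WT and 4 MSX2-/- libraries (2 clones of 2 replicates, day 8) was analysed. The authors deposited FPKM values, 1 column per library, with replicates not pooled. Per the labels, TopHat and Cufflinks were used, and the submitters' processing notes name BWA, Bowtie, RSEM and hg19. Which of these made the table, and the annotation, are not given in the sources used here. Genes under a mean of 0.5 FPKM were left out, and limma 3.58.1 (R 4.3.3) with a mean-variance trend was run on log2(FPKM + 1), a scale that understates changes of low genes, with Benjamini-Hochberg adjustment over 15895 genes. Fits were tested on simulated data. The labels give replicates 1 and 2 their own set letters, and differences between replicates correlated across genes by 0.51, 0.54 and 0.64 between WT, 1# and 2#, so the number pairs the libraries; the fit without the block was set as the main design. Clones numbered 1 and 2 in the column heads are called 1# and 2# here. The labels number the clones 7 and 10, with no key, and the match to the paper's 1# and 2# is not given. Relative depth was read from ratios of values under 0.1 FPKM. Named genes were all 10 members, listed pathway genes called without or with the block, the 2 highest and 2 lowest of these lists by fold change, and for each called member the 3 genes most correlated with it (mean of at least 1 FPKM). The members and lists were chosen with earlier results of these data known. Some listed genes are not reported here and were left out of the lists' counts. HOXB1, CDX1, NCOA1, NCOA3, DHRS3, RDH10, ALDH1A3, LIPC, AQP9, TOP2B, RARA-AS1 and the marker genes given singly were named after their values were seen. Alternatives were a block by replicate number, no filter, a pseudocount of 0.1, 2 other scalings, 3 groups, no trend, and leaving out libraries.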

Additional observations from a re-analysis of the deposited data

Results flagged for a closer look

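ALDH1A1 in 1# replicate 1, at 32.9 FPKM, lay apart from the other 3 MSX2-/- libraries, which were between 38.3 and 38.4 FPKM: the gap made up 0.983 of the range of the group, above Dixon's 95% critical value for 4 samples. By chance about 1 in 20 such groups would be marked, and the value is still far above both WT libraries.

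In 3 genes both clones stood on one side of WT in replicate 1 and on the other in replicate 2. The share of all genes that do so was not counted, so this is not a trait of these genes. Within a replicate number both clones are set against the same single WT library, so their shared sign is not independent. The difference of the effects on the log2 scale was -1.53 for CRABP2 and -1.13 for RARG, with an adjusted p of 0.32 for each by limma. For RARB, too low for the fit, it was 0.31 and was not tested, and the value of 1# in replicate 2 was only 0.0019 above that of WT.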

How the results depend on the processing

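In MSX2-/- against WT, ALDH1A1 kept its call in all 15 alternatives (log2 1.96 to 2.15, adjusted p up to 0.0499 by limma); ALDH1A2 kept its direction (-2.31 to -1.34) and was called in 1 of 15, with the replicate block. With that block, which uses the pairing of the libraries, 2 of the 10 members, 1 in 1# against WT, 1 in 2# against WT, 4 other pathway genes and 1566 of all genes were called, in place of 1, 0, 0, 1 and 204. With the block and a pseudocount of 0.1 it was 4 pathway genes and 1703 of all genes, and with the block and no filter 1 pathway gene and 507 of all genes. Without the filter, 0 pathway genes and 125 of all genes were called, with 3 groups 0 and 6, and with no mean-variance trend 0 pathway genes. Leaving out any 1 library, where a lone WT library is assumed to vary like the others, gave 0 pathway genes and 19 to 82 of all genes. For replicate 2 against 1, leaving out a pair gave 0 to 1 members and 1512 to 4088 of all genes (4441 with all), and no filter gave 0. For the interaction, all genes called were 3, 0 with a pseudocount of 0.1, 693 with no filter and 0 without any MSX2-/- library. With a pseudocount of 0.1, 1 in place of 0 of the low members reached the smallest p. When single libraries were dropped, log2 fold changes ran from -0.039 to 0.38 for RARA, -0.39 to 0.61 for RARG and -0.22 to 1.08 for CRABP2, below 0 without WT replicate 1 only. For 1# against WT these ranges were -0.017 to 0.40, -0.34 to 0.67 and -0.36 to 0.93, and for 2# -0.061 to 0.35, -0.45 to 0.56 (RARG also turned to -0.092 without 2# replicate 1) and -0.072 to 1.22. In replicate 2 against 1, leaving out a pair gave -0.083 to 0.11 for ALDH1A1 and -0.53 to 0.29 for ALDH1A2, negative without the pair of 1#, and -0.12 to 0.52 for RARG and -0.24 to 0.60 for CRABP2, negative without that of WT. None of the turned values was called, and the cause was not tested. Leaving out libraries for single clones and for the interaction was added after seeing the data.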
